A study of Homo sapiens with 54 samples.

Results

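The olfactory receptor genes of human chromosome 11 were followed through cisplatin treatment in MDA-MB-231, a breast cancer cell line, and PC3, a prostate cancer cell line. Members were the protein-coding genes on this chromosome whose symbol has the form of an olfactory receptor gene, and 171 of 19970 protein-coding genes of the reference table met that rule. For 3 of them (OR9G9, OR8U8 and OR8U9) the table gave positions on an alternate assembly sequence, so values are given for 168. The chromosome matters for this family because its olfactory receptor genes stand in large arrays with few other genes between them. The study compared 6 groups, each with 3 biological replicates: untreated cells of either line, and cells of either line that survived cisplatin, taken 1 day and 10 days after the drug was removed. Each biological replicate was divided into 3 experimental replicates before tagmentation, and 1 peak list per biological replicate was deposited, which makes 18 lists. Both lines are established cultures, 1 line for each tissue, and the cisplatin dose and exposure are not given in the sources used here.

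Olfactory receptors are G protein-coupled receptors of the nasal epithelium. Each mature olfactory neuron expresses a single receptor allele, and the remaining arrays are packed into heterochromatin, as they are in nearly all other cell types. Class I receptors, the older branch that fish also carry, form 1 array on this chromosome, and class II receptors make up the others. ATAC-seq cuts accessible DNA with a transposase, so a peak marks a stretch where the cut DNA piled up beyond a threshold. The comparisons address whether arrays that are silent in epithelial tumour lines gain accessible sites in the surviving cells. In bulk nuclei, more cells with an open site and a site more open in each cell cannot be told apart.

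The 168 genes fell into 7 clusters separated by more than 1 Mb. Cluster 1, at chr11:4367263-7941708, held 67 genes, of which 55 were class I, and it surrounds the beta-globin genes. Cluster 4, at chr11:54603069-56989843, held 48 class II genes beside the centromere. Cluster 7 held 22 genes, cluster 5 held 21, cluster 2 held 7, cluster 3 held 2, and cluster 6 was OR2AT4 alone. Each gene was read through a window of the gene body and 10 kb on either side. A non-olfactory protein-coding gene reached into 19 of the windows, and 149 windows held none.

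Peaks at the promoters were few. RefSeq promoter sequences (build GRCh38.p14, 250 bases before to 50 bases after the start) matched 135 of the 168 genes, and a peak of any list touched 6 of those 135 promoters, or 4.44%. Among 179 olfactory receptor promoters on other chromosomes the share was 4.47%, and among the 15811 matched promoters of all protein-coding genes it was 68.8%. In a single list, 1 to 4 member promoters were touched, against 58.6% to 63.6% of all promoters. The 5 promoters that a peak touched in at least 2 lists are printed here. Capitals mark the bases under a peak of at least 1 list. OR52N2 lies at chr11:5808674-5808973 on the plus strand, OR9Q1 at chr11:58023631-58023930 on the plus strand, OR10A2 at chr11:6862807-6863106 on the plus strand, OR6A2 at chr11:6799640-6799939 on the minus strand, and OR4D9 at chr11:59511289-59511588 on the plus strand.
OR52N2: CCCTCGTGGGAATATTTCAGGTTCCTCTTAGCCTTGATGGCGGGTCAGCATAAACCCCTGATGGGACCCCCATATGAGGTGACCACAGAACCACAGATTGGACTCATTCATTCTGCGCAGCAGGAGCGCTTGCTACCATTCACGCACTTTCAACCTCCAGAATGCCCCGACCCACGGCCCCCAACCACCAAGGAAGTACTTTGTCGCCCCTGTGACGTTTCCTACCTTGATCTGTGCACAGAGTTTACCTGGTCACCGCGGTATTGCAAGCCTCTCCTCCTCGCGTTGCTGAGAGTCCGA
OR9Q1: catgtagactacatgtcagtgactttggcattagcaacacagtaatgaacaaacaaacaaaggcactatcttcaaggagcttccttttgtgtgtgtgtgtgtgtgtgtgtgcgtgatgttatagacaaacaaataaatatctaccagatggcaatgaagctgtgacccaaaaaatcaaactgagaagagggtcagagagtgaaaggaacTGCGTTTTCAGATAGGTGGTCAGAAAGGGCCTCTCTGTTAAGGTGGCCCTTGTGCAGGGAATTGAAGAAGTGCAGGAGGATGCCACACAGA
OR10A2: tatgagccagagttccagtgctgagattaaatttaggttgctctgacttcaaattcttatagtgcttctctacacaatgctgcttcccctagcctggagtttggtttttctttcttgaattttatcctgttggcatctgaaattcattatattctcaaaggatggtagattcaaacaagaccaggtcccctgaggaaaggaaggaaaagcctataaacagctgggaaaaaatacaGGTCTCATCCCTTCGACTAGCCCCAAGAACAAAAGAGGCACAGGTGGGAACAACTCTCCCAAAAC
OR6A2: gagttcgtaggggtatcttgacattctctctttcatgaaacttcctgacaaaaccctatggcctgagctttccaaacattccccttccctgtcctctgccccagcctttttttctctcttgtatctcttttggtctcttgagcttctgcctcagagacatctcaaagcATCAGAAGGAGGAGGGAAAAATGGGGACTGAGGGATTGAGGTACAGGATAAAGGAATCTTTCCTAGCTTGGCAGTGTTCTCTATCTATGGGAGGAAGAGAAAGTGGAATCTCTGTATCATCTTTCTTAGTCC
OR4D9: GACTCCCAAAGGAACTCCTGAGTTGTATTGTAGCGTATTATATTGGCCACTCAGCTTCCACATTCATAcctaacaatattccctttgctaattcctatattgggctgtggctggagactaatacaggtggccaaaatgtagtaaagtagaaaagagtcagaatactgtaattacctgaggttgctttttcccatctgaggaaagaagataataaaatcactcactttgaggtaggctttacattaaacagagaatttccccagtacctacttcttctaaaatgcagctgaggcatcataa
The OR52N2 promoter was covered over its whole length and was touched in all 18 lists, untreated cells included. That promoter stood apart from the other 4 in composition, with 55.3% G and C and 14 CpG sites, against a median of 37.0% and 1 CpG over the 135 member promoters and 62.7% and 22 CpG over all promoters. The OR9Q1 promoter was touched in the 3 MDA-MB-231 day 1 lists and in 2 of 3 day 10 lists, and in no untreated list. OR6A2, a receptor gene near which human variation in the perception of coriander has been mapped, had its start under a peak in the 3 MDA-MB-231 day 10 lists and in no other list. The OR10A2 promoter was touched in 1 MDA-MB-231 day 10 list, 1 PC3 day 1 list and 2 PC3 day 10 lists. The OR4D9 promoter was touched in 2 PC3 day 10 lists alone, over 68 bases at its upstream end that do not reach the start.

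Motifs known from olfactory receptor promoters or from inducible enhancers were searched on both strands of these windows. The Olf/Ebf motif CCCNNGGG, which reads the same on both strands, occurred in 11 of 135 member promoters (8.15%), against 21.7% of all promoters. The homeodomain core TAATTA, of the type bound by LHX2, also reads the same on both strands and occurred in 33 of 135 (24.4%), against 3.35% of all promoters. The AP-1 motif TGANTCA occurred in 15 of 135 (11.1%), against 5.76%. None of the motifs contains another. Olfactory receptor promoters on other chromosomes held them in 7.82%, 21.8% and 11.2% of cases. Of the 5 printed promoters, OR4D9 holds 1 TAATTA and the others hold none of the motifs. A match is a description of the letters only. Base composition differs between receptor promoters and all promoters, as given above, and its part in these shares was not tested.

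Of the 168 genes, 82 (48.8%) had no peak within their window in any list of either line at any time, compared with 53.4% of the 221 olfactory receptor genes on other chromosomes and 10.9% of all protein-coding genes. Another 73 genes had a peak in 1 to 17 lists, and 13 had one in all 18. Among class II genes 61 of 113 (54.0%) had no peak, and among class I genes 21 of 55 (38.2%). Cluster 4 was the emptiest of the large clusters, with 34 of its 48 genes never touched. Its longest silent stretch by number of genes ran over 13 neighbours from OR5J2 to OR5M8, at chr11:56176618-56491370, where no list had a peak within 10 kb of any gene. The cluster also contained a stretch of 469 kb without any peak, although that stretch held no member. In cluster 7, 11 of 22 genes were never touched, in cluster 5 it was 4 of 21, and in cluster 1 it was 27 of 67. Both genes of cluster 3 (OR4C13 and OR4C12, named here after their values were seen) had no peak in any list. Genes without a peak lay a median of 97.8 kb from the nearest non-olfactory protein-coding gene, against 54.2 kb for the 13 genes with a peak in every list. The 73 genes with a peak in 1 to 17 lists lay a median of 93.4 kb away, close to the genes without a peak. Genes without a peak were also shorter, with a median length of 991 bp, against 3243 bp for the 73 genes and 5436 bp for the 13. A longer gene has a longer window.

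**Figure D1:**
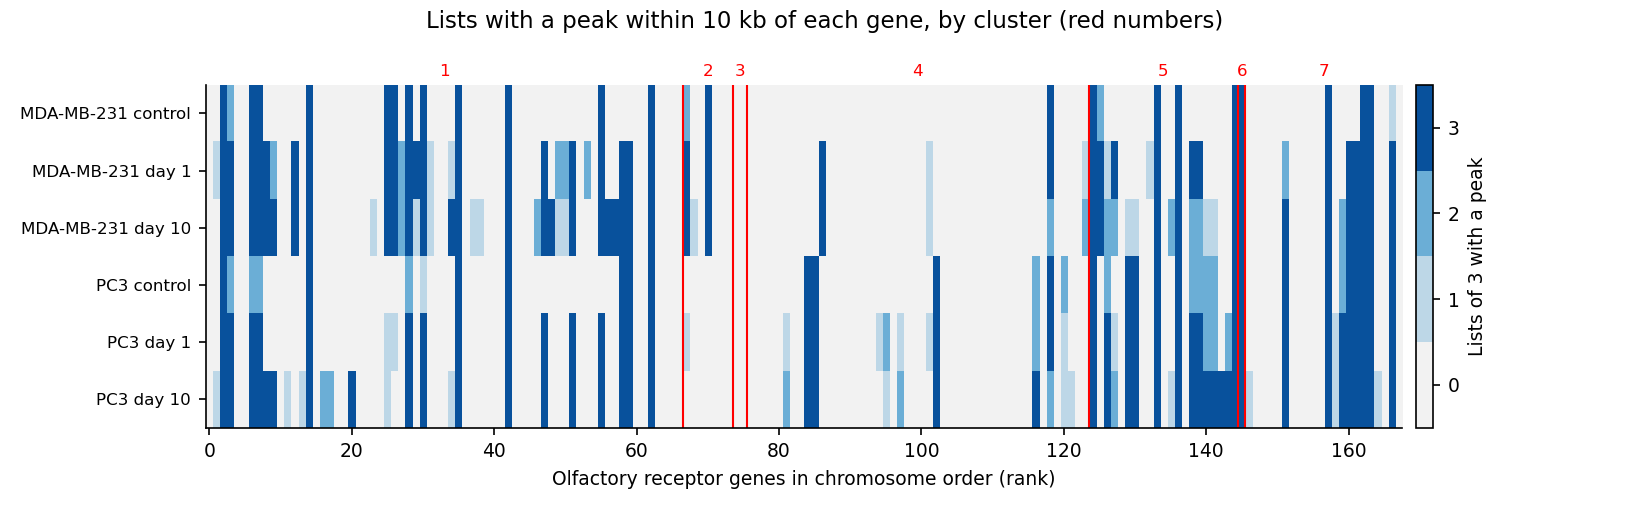
Each column is 1 of the 168 genes in chromosome order and each row is a group; the colour gives in how many of the 3 lists of the group a peak lay within 10 kb of the gene, from 0 (pale) to 3 (dark blue), and red numbers name the clusters. The 13 columns dark in every row were open before treatment, the 82 pale columns had no peak in any list, and cluster 4 is mostly pale.

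More of the genes had a peak in surviving than in untreated cells in both lines. These totals over the members are given as values, with no test. In untreated MDA-MB-231 cells, 26, 22 and 25 of the 168 genes had a peak in the 3 lists. At day 1 the counts were 51, 41 and 44, and at day 10 they were 54, 42 and 57. In PC3, 36, 27 and 37 genes had a peak in untreated cells, 51, 37 and 43 at day 1, and 57, 52 and 47 at day 10. Survivor lists lay above the untreated lists without overlap at both times in MDA-MB-231 and at day 10 in PC3, whereas at day 1 in PC3 the lowest survivor list equalled the highest untreated list. As shares, the group means were 14.5% ± 1.24, 27.0% ± 3.05 and 30.4% ± 4.72 (SD, n = 3) in MDA-MB-231, and 19.8% ± 3.28, 26.0% ± 4.18 and 31.0% ± 2.98 (SD, n = 3) in PC3.

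Olfactory receptor genes on other chromosomes moved in the same direction. Of those 221 genes, 14.8% ± 2.32, 26.2% ± 1.81 and 29.0% ± 1.63 (SD, n = 3) had a peak in MDA-MB-231, and 25.0% ± 0.691, 29.9% ± 3.94 and 32.3% ± 3.77 (SD, n = 3) in PC3. Over all protein-coding genes the shares moved by a few percentage points, from 81.4% ± 0.776 to 84.5% ± 0.989 and 84.8% ± 0.862 (SD, n = 3) in MDA-MB-231 and from 83.0% ± 0.574 to 84.7% ± 1.00 and 85.0% ± 0.823 (SD, n = 3) in PC3. For all genes, too, survivor lists lay above untreated lists without overlap, at both times in both lines. These shares started high and had little room to rise, so their points cannot be set against those of the members. Survivor lists were also longer: untreated MDA-MB-231 lists held 82392 to 98777 peaks and survivor lists 100564 to 133526, while untreated PC3 lists held 106577 to 114731 and survivor lists 115050 to 165535. To hold list length equal, the counts were repeated with the 50000 peaks of highest area in each list. Then 9 to 11 of the 168 genes had a peak in untreated MDA-MB-231 lists, 10 to 12 at day 1 and 11 to 15 at day 10. In PC3 the numbers were 7 to 9, 9 to 13 and 11 to 14. The mean difference from untreated cells at day 10 went from 26.7 genes to 3.00 for MDA-MB-231 and from 18.7 to 4.67 for PC3. The day 1 difference went from 21.0 to 1.00 and from 10.3 to 2.67. Most of the difference with whole lists lay in peaks outside the 50000 strongest. The starting levels also differed between the peak sets. From untreated cells to day 10, MDA-MB-231 means went from 24.3 to 51.0 genes with whole lists and from 10.0 to 13.0 with 50000 peaks. PC3 means went from 33.3 to 52.0 and from 8.00 to 12.7. Relative to the start, the rise was smaller with 50000 peaks in MDA-MB-231 and similar in PC3.

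The covered length was higher as well. All 168 windows together span 3463 kb, and peaks covered 0.347% ± 0.0246 of it in untreated MDA-MB-231 cells, 0.653% ± 0.0386 at day 1 and 0.646% ± 0.0902 at day 10 (SD, n = 3). In PC3 the covered shares were 0.400% ± 0.0293, 0.568% ± 0.0331 and 0.674% ± 0.0405 (SD, n = 3). Set against the total length covered in each list, the windows took 190 ± 16.7, 320 ± 2.76 and 355 ± 16.8 covered bp per Mb covered in MDA-MB-231; PC3 had 213 ± 15.4, 248 ± 22.1 and 301 ± 10.0 (SD, n = 3). Survivor lists exceeded untreated lists in all 4 of these contrasts without overlap. Windows of olfactory receptor genes on other chromosomes took 327 ± 8.64, 472 ± 29.1 and 525 ± 9.37 per Mb in MDA-MB-231 (SD, n = 3). In PC3 they took 640 ± 38.1, 698 ± 8.34 and 689 ± 34.4 (SD, n = 3). Their survivor lists also exceeded untreated lists without overlap, except in PC3 at day 10, where the lists overlapped. With the 50000 strongest peaks alone the means were 138 ± 16.4, 177 ± 24.9 and 202 ± 19.4 per Mb for MDA-MB-231, and PC3 had 112 ± 12.2, 134 ± 41.4 and 159 ± 23.3 (SD, n = 3). Among the clusters, cluster 1 carried the most in MDA-MB-231, at 6.73 ± 0.409, 12.2 ± 1.12 and 11.3 ± 1.10 kb (SD, n = 3), and went in PC3 from 4.66 ± 0.756 to 6.66 ± 0.345 and 8.36 ± 0.0875 kb (SD, n = 3). Cluster 4 went from 0.213 ± 0.0084 to 0.938 ± 0.334 and 1.14 ± 0.375 kb in MDA-MB-231, and held 2.13 ± 0.526, 2.70 ± 0.706 and 2.32 ± 0.457 kb in PC3 (SD, n = 3).

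**Figure D2:**
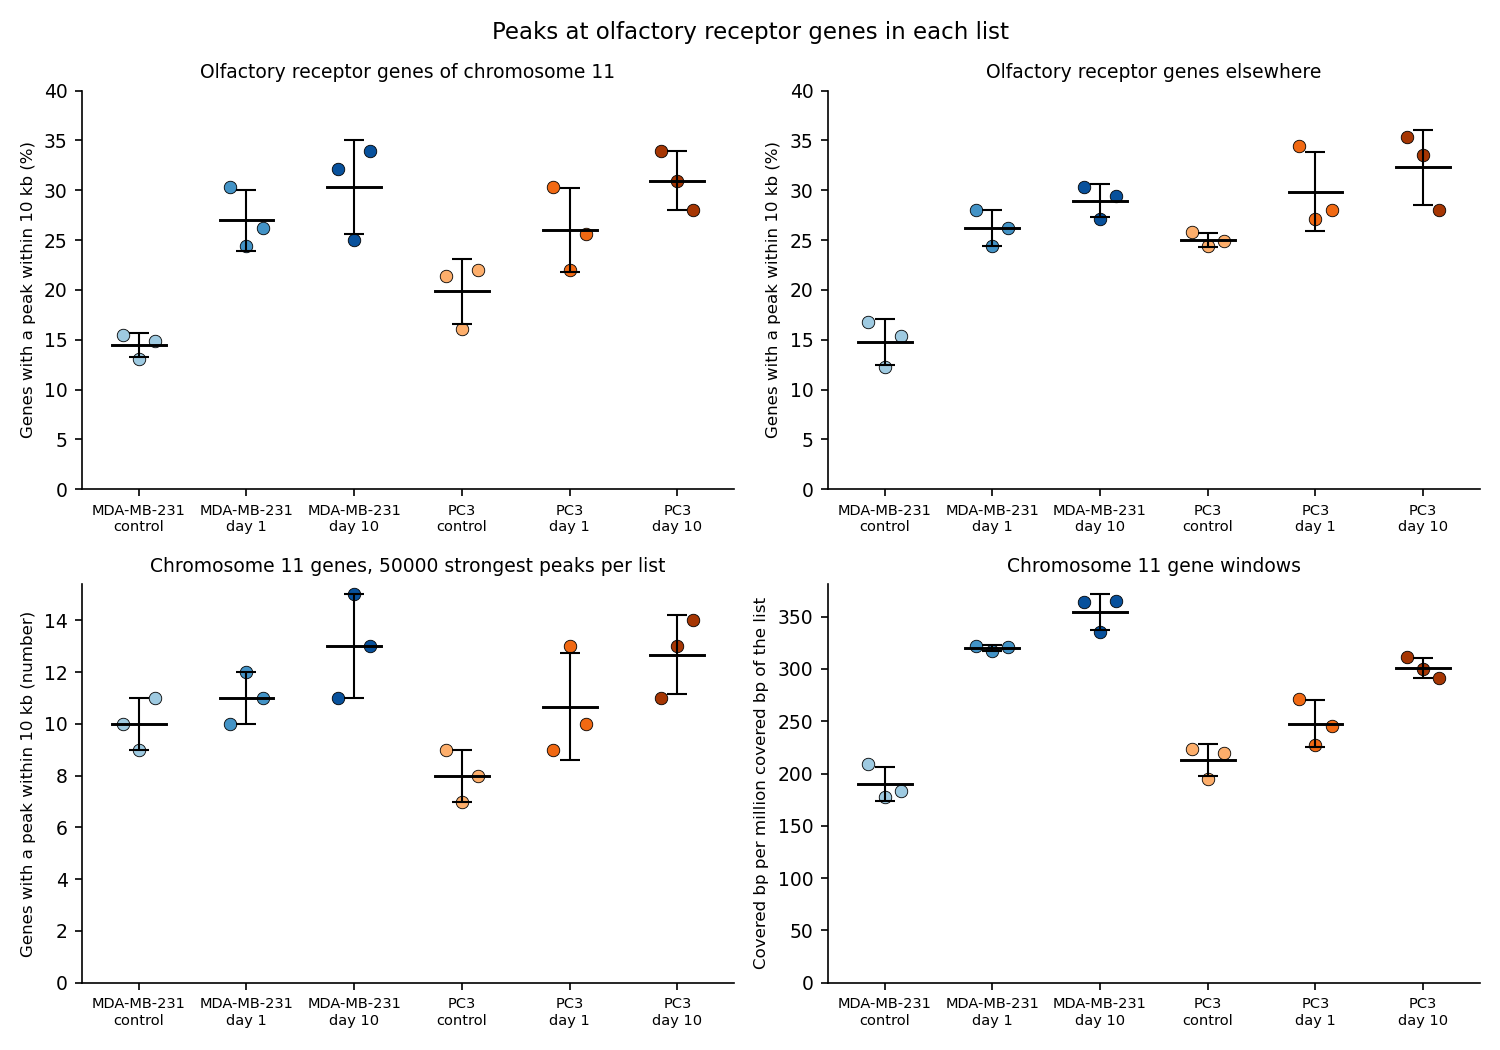
Points are the 3 lists of each group, lines the mean and bars the SD; the upper panels give the percentage of chromosome 11 genes and of olfactory receptor genes elsewhere with a peak within 10 kb, the lower panels the number of chromosome 11 genes with a peak among the 50000 strongest of each list and the covered bp of their windows per Mb covered. Means went from 14.5% to 30.4% in MDA-MB-231 and from 19.8% to 31.0% in PC3 with whole lists. With 50000 peaks they went from 10.0 to 13.0 and from 8.00 to 12.7 genes, from a lower start. Relative to the start, the rise with 50000 peaks was smaller in MDA-MB-231 and similar in PC3.

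To test single genes, the covered bp in each window was scaled by the total covered length of the list and compared with limma on log2(scaled bp + 500), over all protein-coding genes that reached 500 bp in 3 or more lists, and a gene was called at an adjusted p below 0.05. That filter kept 16812 genes, of which 29 were members, and 139 members did not reach it. A gene that passes only because surviving cells have peaks there had to differ, so the counts below describe these 29 genes and are not a result on the family. Of the 29, 10 reached 500 bp in survivor lists alone: OR10A2, OR10A5, OR51E2, OR51V1, OR56A1, OR56A3, OR5D3, OR6Q1, OR9I1 and OR9Q2. For these the values are given with no p in the line through which they passed. Several windows share peaks, and the 29 genes rest on 20 separate loci. Some member counts in other settings, and all member counts at an unadjusted p, are given without the share of all genes there. Those counts do not show whether a move is particular to the members. Where no untreated list of a line had a peak, no fold change over untreated cells is given.

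**Figure D3:**
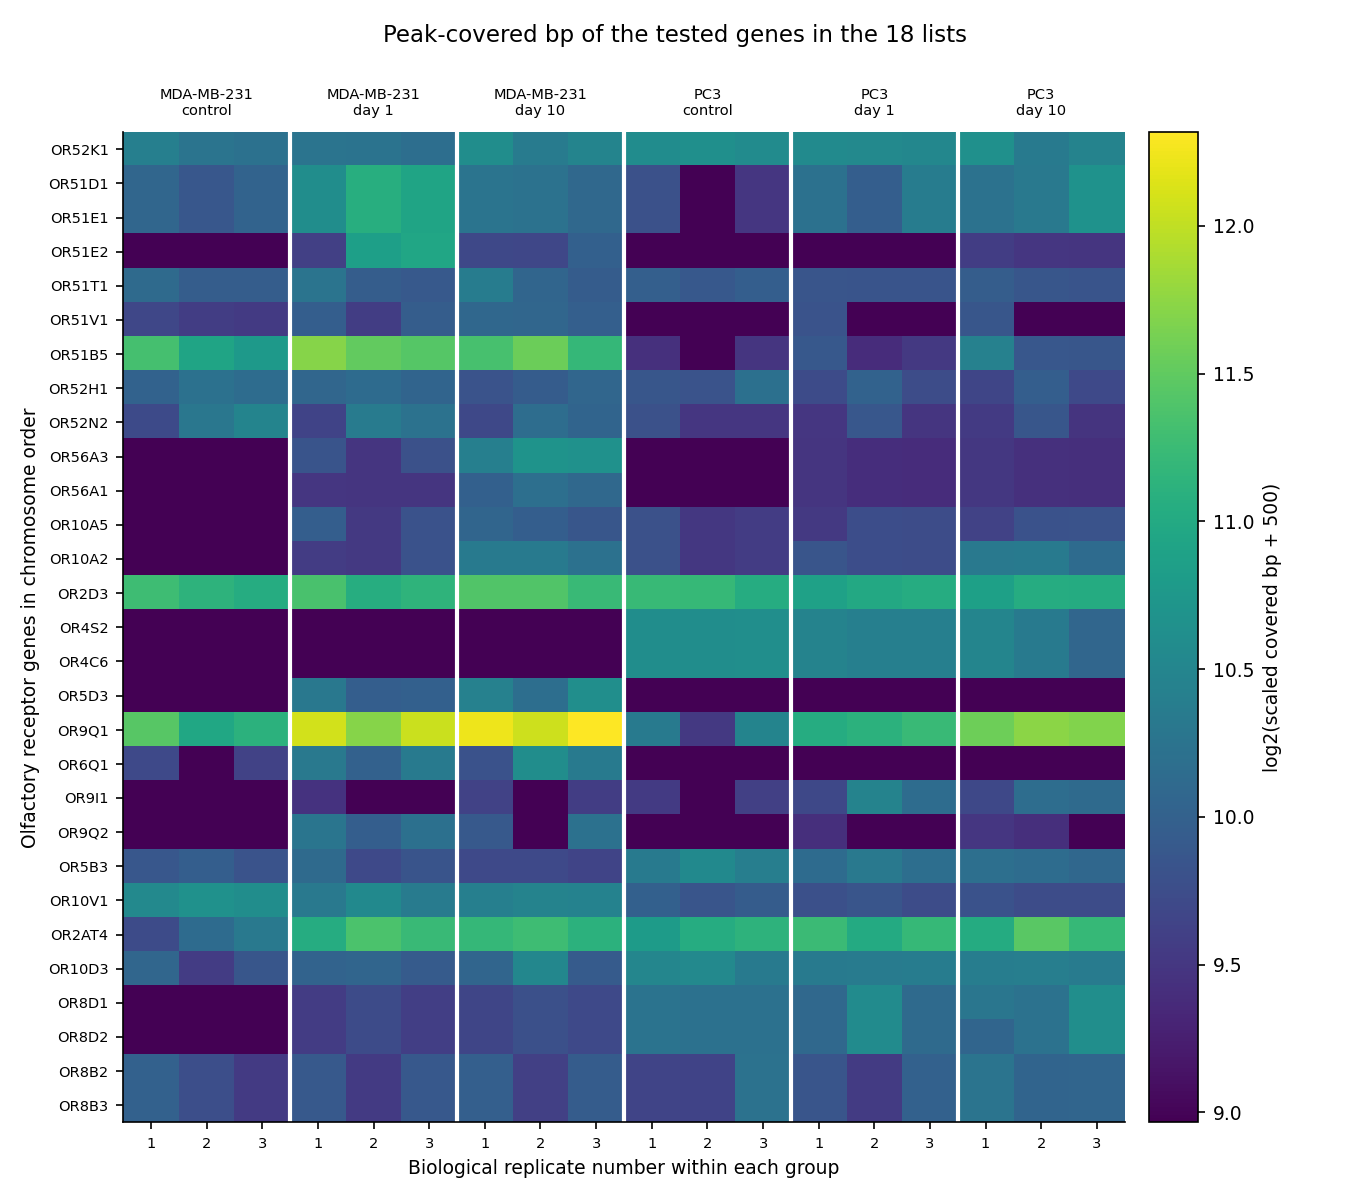
Rows are the 29 tested genes in chromosome order and columns the 18 lists, grouped by line and time; the colour is log2(scaled covered bp + 500), so the darkest cells mark windows without a peak. OR2D3 and OR52K1 are bright in every list, OR4S2 and OR4C6 are dark in all 9 MDA-MB-231 lists, and OR56A3, OR56A1 and OR5D3 are dark in untreated cells.

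In MDA-MB-231 survivors at day 1, receptor genes of 5 clusters had more covered bp than in untreated cells. Of the 29 genes tested, 15 were called higher, on 9 loci, among them 8 that had passed the filter through survivor lists alone, and 0 lower, where 10.9% of all genes tested were called higher and 15.5% lower (limma, Benjamini-Hochberg over all genes). At an unadjusted p under 0.05 by limma, 15 were higher and 0 lower. The median log2 difference over the 29 genes was 0.52, against -0.09 over all genes tested. The direction split of all genes depended on the scaling: with median-of-ratios scaling 2230 genes were higher and 952 lower, and 13 members were higher and 0 lower. With the 50000 strongest peaks, 15 members could be tested and 1 was called higher. OR2AT4, a receptor gene also described in skin keratinocytes, covered 350.0, 622 and 781 scaled bp in untreated cells and 1615, 2135 and 1924 at day 1. All 3 survivor lists lay above the untreated ones, and the log2 difference was 1.16 ± 0.15 (SE, limma adjusted p = 3.61e-05). OR9Q1, whose annotated body is 157736 bp long, went from 2297, 1492 and 1724 to 3841, 2860.0 and 3720.3 scaled bp. Its log2 difference was 0.77 ± 0.19 (SE, limma adjusted p = 0.00736), again without overlap between the groups. OR51B5, another long gene at 165335 bp, had 2061, 1445 and 1234 scaled bp in untreated cells and 2844, 2419 and 2255 at day 1, with a log2 difference of 0.55 ± 0.19 (SE, limma adjusted p = 0.0446). That call was lost in 12 of the 31 other settings run, with adjusted p up to 0.567, among them each of the 3 fits that left out 1 day 1 list of the line.

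Several other MDA-MB-231 windows went from no peak to peaks in all 3 day 1 lists, and OR6Q1 went from peaks in 2 lists to all 3. OR5D3, in cluster 4, had 0 bp in the untreated lists and 766, 498 and 519 at day 1. OR10A5 and OR10A2, neighbours in cluster 1 that share a peak at chr11:6855994-6856470, had 0 bp in untreated cells; OR10A5 then had 503, 237 and 400.1 scaled bp. OR8D1 and OR8D2 share 1 gained region, chr11:124315039-124315398, and both had 255, 351 and 271 scaled bp at day 1 after 0 in untreated cells. OR9Q2 had 730.4, 499 and 674 scaled bp at day 1 and 0 before. OR6Q1, which lies inside OR9Q1, had 338, 0 and 292 scaled bp in untreated cells and 783, 524 and 787 at day 1.

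At day 10 in MDA-MB-231, 12 of the 29 genes were called higher against untreated cells, on 7 loci, among them 8 that had passed the filter through survivor lists alone, and 0 lower, where 11.0% of all genes were called higher and 16.7% lower. All 12 were among the 15 called at day 1; both comparisons use the same untreated lists. At an unadjusted p under 0.05 by limma, 13 were higher and 0 lower. The median log2 difference over the 29 genes was 0.36, against -0.11 over all genes. With median-of-ratios scaling 2171 of all genes were higher and 963 lower, and 11 members were higher and 0 lower. With the 50000 strongest peaks 2 members were called higher and 1 lower, and with the MDA-MB-231 lists fitted alone 6 were higher. OR56A3, a class I gene of 79760 bp that spans OR56A5, had 0 bp in the untreated lists, 418, 213 and 387 at day 1, and 867, 1146 and 1115 at day 10. OR56A1, the gene beside it, had 0 bp, then 219.9, 213 and 217, then 523, 664 and 596. OR10A2 had 0 bp, then 255, 237 and 400.1, then 794, 795 and 690.0. OR5D3 reached 889, 652 and 1075 scaled bp at day 10. Each day 10 list of OR56A3, OR56A1 and OR10A2 exceeded each of their day 1 lists. OR2AT4 and OR9Q1 also stayed above untreated cells, with log2 differences of 1.13 ± 0.15 and 1.03 ± 0.19 (SE; limma adjusted p = 2.36e-05 and 0.000719).

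Between day 10 and day 1 in MDA-MB-231, 3 of the 29 genes were called higher, where 2.14% of all genes were, and 2 lower, where 3.24% were. The genes higher at day 10 were OR56A3, OR56A1 and OR10A2. All of them had passed the filter through day 10 lists, so their call in this comparison is no support. OR51D1 and OR51E1, neighbours whose windows hold the same peaks, were the genes lower at day 10. Leaving out any 1 of the 3 day 10 lists of this line left 1 gene called higher and 0 lower, since OR56A3 and OR56A1 then no longer reached the filter. In the other settings where they reached the filter, OR56A3 kept its call in 25 of 25 and OR56A1 in 22 of 22. Settings in which they failed the filter are not in those counts, so the counts are no support either. The count of lower genes was also 0 without MDA-MB-231 control replicate 3, MDA-MB-231 day 1 replicate 2 or 3, PC3 control replicate 3 or PC3 day 1 replicate 1, and with median-of-ratios scaling, where 2 were higher. The same-numbered lists of day 10 and day 1 deviated together in this line, and with the replicate number as a block (replicate block) the counts were again 3 and 2.

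OR51E1 and OR51E2 are the members best known outside the nose, since both are expressed in prostate and have been studied in prostate cancer. OR51E1 had 579, 437 and 543 scaled bp in untreated MDA-MB-231 cells, 1062, 1649.7 and 1434 at day 1, and 722, 697 and 598 at day 10. Its day 1 lists lay above all others of the line, the log2 difference to untreated cells was 0.87 ± 0.18 (SE, limma adjusted p = 0.00279), and at day 10 it was 0.20 ± 0.18 (SE, limma adjusted p = 0.431). The regions behind these values, chr11:4636779-4637733 and chr11:4641316-4642206, lie at the OR51D1 body, and no list had a peak within 1 kb of OR51E1 itself. In PC3, OR51E1 had 392, 0 and 223 scaled bp in untreated cells, 692, 501 and 832 at day 1, and 695, 783 and 1136 at day 10. The PC3 differences were 0.77 ± 0.18 at day 1 and 0.99 ± 0.18 at day 10 on the log2 scale (SE; limma adjusted p = 0.0145 and 0.000559). OR51E2 had no peak in any untreated list of either line. In MDA-MB-231 it had 277, 1359 and 1468 scaled bp at day 1 and 328, 317 and 524 at day 10. In PC3 it had 0 bp in the day 1 lists and 266, 222 and 218 at day 10 (limma adjusted p = 0.0648). The peak present in both lines at day 10, chr11:4697610-4697888, lies within the annotated bodies of OR51E2 and OR51C1. The higher day 1 values of MDA-MB-231 replicates 2 and 3 came with a second region, chr11:4672119-4673472, that had a peak in those 2 lists and in no other. The windows of OR51E2 and OR51C1 also hold part of MMP26, a matrix metalloproteinase gene. The MMP26 window had a log2 difference of 0.68 ± 0.16 in MDA-MB-231 and 0.83 ± 0.16 in PC3 at day 10 (SE, limma adjusted p = 0.0054 and 0.000745). That window runs through the array from OR51E2 to OR51L1 and shares peaks with member windows, so its values are not separate from theirs.

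In PC3 survivors at day 1 the called genes were OR9Q1, OR9I1, OR51D1, OR51E1, OR56A1 and OR56A3. Of the 29 genes, 6 were called higher, on 3 loci, and 0 lower. Among the 6 were 3 that had passed the filter through survivor lists alone. Of all genes tested, 6.03% were called higher and 7.24% lower. At an unadjusted p under 0.05 by limma the counts were again 6 and 0. The median log2 difference over the 29 genes was 0.02, against -0.07 over all genes. With median-of-ratios scaling 1473 of all genes were higher and 402 lower, and 5 members were higher and 0 lower. OR9Q1 had 808, 238 and 931 scaled bp in untreated PC3 cells and 1603, 1718 and 1913 at day 1, a log2 difference of 1.01 ± 0.19 (SE, limma adjusted p = 0.00335). OR56A1 and OR56A3 had 0 bp in the untreated lists and the same 213, 179.9 and 174 at day 1, since both windows hold the region chr11:6023055-6023296 (limma adjusted p = 0.00956 and 0.0195). Untreated lists at 0 bp add no spread to these p-values, which can therefore be too small. OR9I1, which lies inside OR9Q1, was also called, with 244, 0 and 277 scaled bp before and 325, 918 and 637 at day 1, and had passed the filter through PC3 survivor lists alone. Without PC3 day 1 replicate 3 the count of higher genes was 2, without PC3 control replicate 2 it was 3, and with the 9 PC3 lists fitted alone it was 1.

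At day 10 in PC3, 8 of the 29 genes were called higher, on 5 loci, and 2 lower, on 1 locus. Among the 8 were 4 that had passed the filter through survivor lists alone. Of all genes tested, 11.8% were called higher and 33.1% lower. The 8 include the 6 called at day 1; both comparisons use the same untreated lists. The median log2 difference over the 29 genes was 0.15, against -0.16 over all genes. With median-of-ratios scaling 3421 of all genes were higher and 2517 lower, and 9 members were higher and 0 lower. OR9Q1 had 2546, 2922 and 2782 scaled bp at day 10, with a log2 difference of 1.54 ± 0.19 to untreated cells (SE, limma adjusted p = 1.83e-05). OR10A2 had 394, 227 and 254 scaled bp in untreated PC3 cells, 422, 366 and 359.9 at day 1, and 775, 794 and 628 at day 10 (log2 difference at day 10 0.64 ± 0.12 SE, given with no p because the gene passed the filter through day 10 lists). OR51B5 had 192, 0 and 216 scaled bp in untreated PC3 cells and 890.4, 442 and 428 at day 10 (log2 difference 0.76 ± 0.19 SE, limma adjusted p = 0.00436). OR56A1 and OR56A3 kept the level of day 1, at 226, 189 and 181 scaled bp. With the 50000 strongest peaks 2 members were called higher and 0 lower.

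The 2 genes called lower at day 10 in PC3 were OR4S2 and OR4C6, neighbours in cluster 4 that share their peaks. Both had 1057, 1056 and 1079 scaled bp in untreated PC3 cells, 909, 864 and 859 at day 1, and 943, 792 and 578 at day 10. The log2 difference at day 10 was -0.31 ± 0.11 (SE, limma adjusted p = 0.029), where the median of all genes was -0.16. The call ended in 10 of the 30 other settings run, with adjusted p up to 0.730. These were the 50000 strongest peaks, the upper 50% of each list, no scaling, median-of-ratios scaling, a pseudocount of 100 bp, the PC3 lists alone, and the fits without any 1 of the 3 untreated PC3 lists or the third day 10 list. Neither gene had a peak in any of the 9 MDA-MB-231 lists.

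From day 1 to day 10 in PC3, 1 gene (OR10A2) was called higher, where 2.18% of all genes were, and 0 lower, where 5.47% were. Its log2 difference was 0.48 ± 0.12 (SE), and this gene had passed the filter through the day 10 lists. These lists are paired by number, and with the replicate block 2 genes were higher, the added one being OR51B5 at 0.46 on the log2 scale (limma adjusted p = 0.0464). At an unadjusted p under 0.05 by limma, 4 genes were higher and 0 lower.

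**Figure D4:**
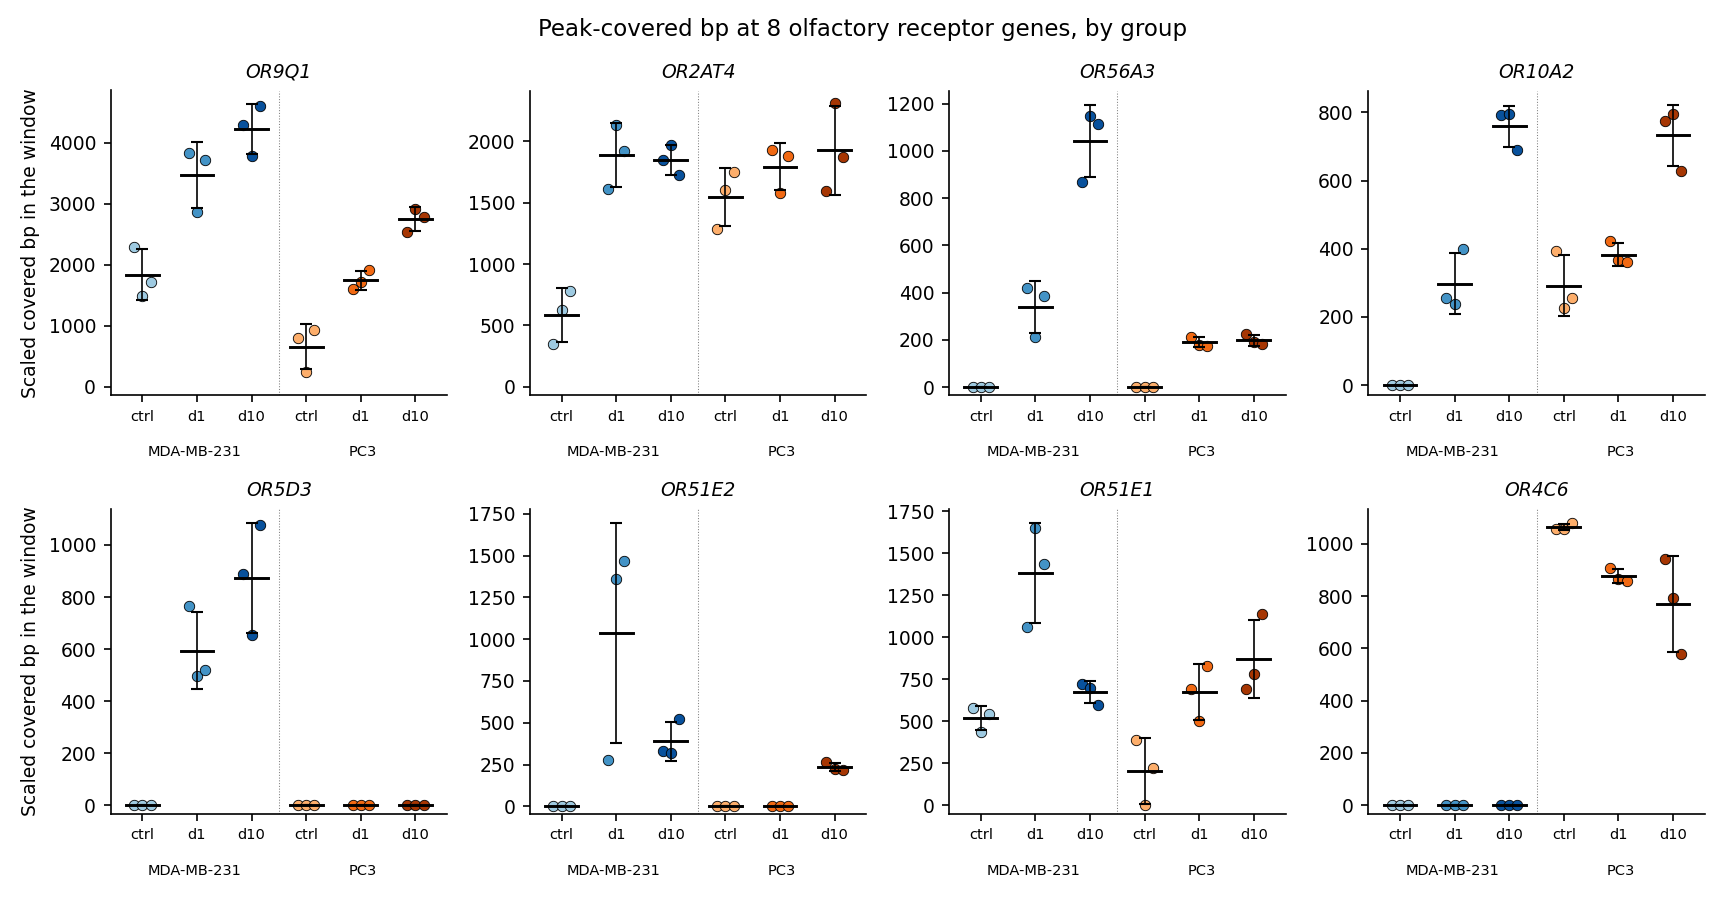
Each panel gives the scaled covered bp of 1 gene in the 3 lists of each group (points), with the mean (line) and SD (bar); ctrl is untreated, d1 and d10 are 1 and 10 days after cisplatin removal. OR56A3 and OR10A2 increase from day 1 to day 10 in MDA-MB-231, OR51E1 and OR51E2 have their highest mean at day 1 there (the OR51E2 lists spread from 277 to 1468), OR5D3 has peaks in MDA-MB-231 survivors alone, and OR4C6 has peaks in PC3 alone.

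The untreated lines already differed at these genes. Against untreated MDA-MB-231, untreated PC3 had 10 of the 29 genes called higher and 8 lower, where 21.0% of all genes were higher and 44.3% lower. OR4S2 and OR4C6, with the PC3 values above, had 0 bp in MDA-MB-231; like OR8D1 and OR8D2 they passed the filter through PC3 lists alone. OR51B5 was lower in PC3 by a log2 difference of -1.71 ± 0.19 (SE, limma adjusted p = 5.86e-07). OR8D1 had 710.0, 693 and 686 scaled bp in untreated PC3 cells and 0 in untreated MDA-MB-231 cells. OR10V1 was lower in PC3, at 516, 425 and 481 scaled bp against 992, 1123 and 1063, a log2 difference of -0.68 ± 0.10 (SE, limma adjusted p = 7.86e-06). OR2AT4 was higher in PC3 by 0.93 ± 0.15 (SE, limma adjusted p = 2.8e-05). With median-of-ratios scaling 5092 of all genes were higher and 4927 lower, and 11 members were higher and 5 lower. The count of lower genes was 3 without PC3 control replicate 2 and 5 without PC3 control replicate 3.

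The change from untreated cells was tested for a difference between the lines. At day 1, 0 of the 29 genes were called with a larger change in PC3, where 1.86% of all genes were, and 4 with a smaller one, where 3.44% were: OR5D3, OR2AT4, OR51E2 and OR10A5. All but OR2AT4 of these had passed the filter through MDA-MB-231 survivor lists alone, so a larger change in that line was built in. At an unadjusted p under 0.05 by limma, 0 were larger and 9 smaller, a cut-off unlike that of the shares of all genes just given. Without MDA-MB-231 day 1 replicate 3 the count at an adjusted p below 0.05 was 2. At day 10, 2 genes (OR51D1 and OR51E1) had a larger change in PC3, where 5.82% of all genes had, and 8 a smaller one, where 10.6% had. The calls of OR51D1 and OR51E1 were lost in 19 of the 30 and 19 of the 29 other settings run, with adjusted p up to 0.823. The 8 genes with a smaller change stood on 5 loci, and 5 of them had passed the filter through survivor lists alone. OR2AT4, which had not, differed by -0.89 ± 0.21 on the log2 scale (SE, limma adjusted p = 0.00771). Of the genes called higher at day 10, 4 were called in both lines (OR10A2, OR56A1, OR56A3 and OR9Q1), 33.3% of the 12 in MDA-MB-231 and 50.0% of the 8 in PC3. All of these but OR9Q1 had passed the filter through survivor lists alone, and OR56A1 and OR56A3 share a region. The member shares are therefore no result on the family. Of all genes called higher, 688 were called in both lines, 37.2% of those in MDA-MB-231 and 34.7% of those in PC3.

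Some members had peaks in every list. OR2D3, whose value came from a peak at the end of the zinc finger gene ZNF215 in its window, had 1606 to 1989 scaled bp in untreated MDA-MB-231 cells, 1633 to 2118 at day 1 and 1917 to 2225 at day 10. In PC3 it had 1602 to 1893, 1396 to 1598 and 1369 to 1603. It was called in no comparison. OR52K1 had 657 to 1098 scaled bp over the 18 lists, and OR10D3 had 258 to 999. OR52N2, with the covered promoter printed above, had 344, 759.9 and 921 scaled bp in untreated MDA-MB-231 cells, 299.8, 816 and 698 at day 1, and 327, 645 and 555 at day 10. The groups overlapped, and no survivor comparison called it.

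Other members named by the rule had too few covered bases for the test. OR56A5 had 344, 481 and 309 scaled bp in the MDA-MB-231 day 10 lists and 0 in the other 15 lists. OR6A2 had 298, 317 and 284 in the same 3 lists and 0 elsewhere. OR4S1 had peaks in all 9 MDA-MB-231 lists, 263, 221 and 355 scaled bp before treatment among them, and in no PC3 list. OR10S1 had 0 bp in untreated MDA-MB-231 cells, 223, 0 and 211 at day 1 and 276, 298 and 223 at day 10. In PC3 it had 348, 317 and 379 in untreated cells and 573, 498 and 847 at day 10. OR4D9 had peaks in PC3 alone, with 188, 0 and 171 scaled bp at day 1 and 249, 291 and 287 at day 10. OR52D1 had peaks in 1 MDA-MB-231 day 1 list, in the 3 day 10 lists at 219, 238 and 204 scaled bp, and in 1 PC3 day 10 list. These windows stand together because they failed the filter, so they do not show the size of other sites in the arrays.

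Single regions were then counted as gained or lost. Merging the peaks of the 18 lists gave 232138 regions, of which 131 touched a member window. They were narrower than the rest (median 326 against 466 bp), and 11 of them (8.40%) were present in all 18 lists, against 19.8% of all regions. A region was counted as gained where it had a peak in all 3 survivor lists and in none of the 3 untreated lists of the line, and as lost in the reverse case. In MDA-MB-231, 12 regions (9.16%) were gained at day 1, against 5.06% of all regions, and 19 (14.5%) at day 10, against 6.50%. In PC3, 2 regions (1.53%) were gained at day 1, against 3.51%, and 12 (9.16%) at day 10, against 8.58%. No region was lost in any of the 4 comparisons, where 0.436% (day 1) and 0.582% (day 10) of all regions were lost by MDA-MB-231, and 0.331% and 1.07% by PC3. Without MDA-MB-231 day 10 replicate 2, 30 regions were gained at day 10, and without PC3 day 1 replicate 2, 9 were gained at day 1. With the 50000 strongest peaks, MDA-MB-231 had 1 gained region at day 1 and 2 at day 10, PC3 had 2 and 3, and the single lost region was in MDA-MB-231 at day 10. The shares of all regions with these settings are not given, so whether the members moved apart from them was not tested.

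Of the 131 regions, 32 were gained in at least 1 comparison, 25 of them in MDA-MB-231 and 12 in PC3. Ranked by the authors' area within each list, the median of the gained regions stood at percentile 29.6, against 23.6 over all 131 regions and 60.4 for those present in all lists. Within gene bodies lay 17 of the 32, against 53 of all 131 member regions. Within 1 kb of a member's listed start lay 4 of the 32, against 10 of the 131. None of the 32 lay within 1 kb of the end of a non-olfactory gene, and 1 of the 131 did. At day 10, 4 regions were gained in both lines, at OR51E2 (chr11:4697610-4697888), OR56A1 (chr11:6023055-6023296), OR9Q1 (chr11:58060860-58061628) and OR2AT4 (chr11:75077341-75077627). The OR56A1 region was also gained in both lines at day 1, so it had a peak in all 12 survivor lists and in none of the 6 untreated lists, with a median area percentile of 18.6. How many of all regions were gained in both lines was not counted. The regions gained in both lines are therefore no result about the members. The starts of OR6A2 and OR9Q1 came under regions gained in MDA-MB-231, at chr11:6799483-6799771 (day 10) and chr11:58023840-58024376 (day 1). A region gained in PC3 at day 10, chr11:59510998-59511356, lay 183 bp from the OR4D9 body. OR56A5 had a region gained in MDA-MB-231 at day 10 at 291 bp from its start, chr11:5967793-5968203.

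**Figure D5:**
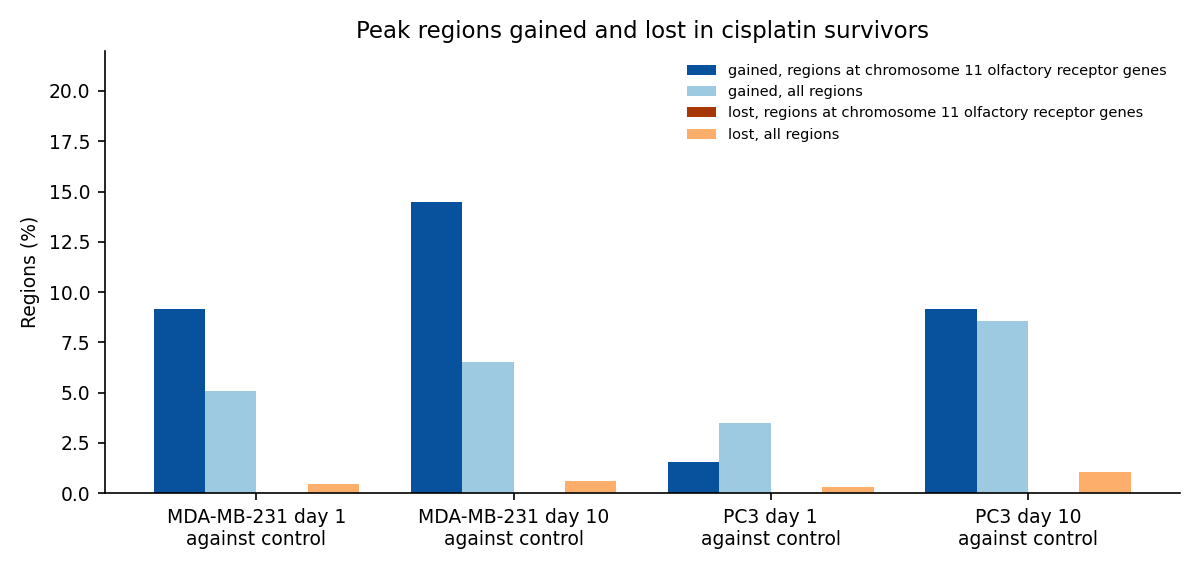
Bars give the percentage of regions gained (blue) or lost (orange) in survivors against untreated cells, for the 131 regions at chromosome 11 olfactory receptor genes (dark) and for all 232138 regions (pale). Gained shares are 9.16% and 14.5% in MDA-MB-231 against 5.06% and 6.50% of all regions, and 1.53% and 9.16% in PC3 against 3.51% and 8.58%; no region at these genes was lost.

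Genes that stand among or around the arrays were read the same way. The globin genes inside cluster 1 had no peak in untreated MDA-MB-231 cells except at HBE1. HBD, the delta-globin gene, had 705, 461 and 789 scaled bp at day 1 and 819, 901 and 762 at day 10 in that line, and 0 in all 9 PC3 lists. HBE1, the embryonic globin gene, had 0 bp in untreated PC3 cells and 313, 282 and 341 at day 10 (limma adjusted p = 0.00122). TRIM34, an antiviral-type TRIM gene in the same cluster, fell by 0.41 ± 0.09 on the log2 scale in PC3 at day 10 (SE, limma adjusted p = 0.00154), with 2561, 2419.6 and 2477 scaled bp before and 1872, 1701 and 1658 after.

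The genes of olfactory signal transduction moved in both directions. Of 18 tested in a list of 19, MDA-MB-231 had 6 called higher and 2 lower at day 1, then 5 higher and 3 lower at day 10. Of all genes tested in that line, 10.9% were higher and 15.5% lower at day 1, and 11.0% and 16.7% at day 10. PC3 had 4 higher and 0 lower at day 1, where 6.03% and 7.24% of all genes were, then 7 higher and 4 lower at day 10, where 11.8% and 33.1% were. ANO2, the chloride channel that amplifies the olfactory current, had 1565, 898 and 1953 scaled bp in untreated MDA-MB-231 cells and 4885, 4292 and 5650.2 at day 1, a log2 difference of 1.50 ± 0.21 (SE, limma adjusted p = 8.7e-05). REEP1, which helps carry receptors to the cell surface, had 597, 1037 and 633 scaled bp in untreated PC3 cells and 4019.8, 4083 and 4757 at day 10, a log2 difference of 1.94 ± 0.14 (SE, limma adjusted p = 6.6e-08). CNGA2, the channel subunit opened by cAMP in olfactory neurons, had peaks only beyond 1 kb of its ends and rose in MDA-MB-231 by 1.05 ± 0.10 at day 10 (SE, limma adjusted p = 1.15e-06). PDE1C, a phosphodiesterase of olfactory cilia, rose there by 1.35 ± 0.13 (SE, limma adjusted p = 1.21e-06).

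Of the 12 genes for receptor choice, all of which were tested, MDA-MB-231 had 0 called higher and 1 lower at day 1, then 1 higher and 0 lower at day 10. PC3 had 1 higher and 0 lower at day 1, then 1 higher and 2 lower at day 10. EBF1, a factor that binds receptor promoters, rose by 0.42 ± 0.11 in MDA-MB-231 at day 10 (SE, limma adjusted p = 0.011). KDM1A, the histone demethylase that allows the chosen receptor to be switched on, fell by 0.60 ± 0.17 on the log2 scale in PC3 at day 10 (SE, limma adjusted p = 0.00764). Among 21 genes for heterochromatin and the nuclear lamina, of which 20 were tested, MDA-MB-231 had 1 higher and 6 lower at day 1 and 0 higher and 5 lower at day 10. PC3 had 0 higher at either time, 4 lower at day 1 and 12 lower at day 10. ATF7IP, the partner of the histone methyltransferase SETDB1, had 2751, 2989 and 2959 scaled bp in untreated PC3 cells and 1159, 1129 and 785 at day 10, and fell by 1.17 ± 0.12 on the log2 scale (SE, limma adjusted p = 4.65e-06). LMNB2, a B-type lamin gene, fell by 0.89 ± 0.14 (SE, limma adjusted p = 0.000178). The counts of both lists stand beside the same shares of all genes: 10.9% higher and 15.5% lower, then 11.0% and 16.7%, in MDA-MB-231, and 6.03% and 7.24%, then 11.8% and 33.1%, in PC3.

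Marker genes were checked by the number of lists with a peak within 1 kb of a gene end. VIM, CD44, ZEB1, AXL, CAV1 and MSN, and also EPCAM, KRT8, KRT18 and ESRP1, had one in all 9 lists of both lines. CDH1 and GRHL2, epithelial genes, had one in 9 of 9 PC3 lists and in 4 and 5 of 9 MDA-MB-231 lists. ESR1 had one in 0 MDA-MB-231 lists, and KLK3 in 0 MDA-MB-231 and 9 PC3 lists. GATA3 had one in 9 MDA-MB-231 lists and 0 PC3 lists. The markers fixed for each line therefore did not all separate the lines, and a peak at a gene is not its expression. Of the markers of mature olfactory neurons, CNGB1, CNGA2 and STOML3 had none in any list, OMP had one in 2 MDA-MB-231 lists and 0 PC3 lists, GNG13 in 6 and 7 lists, and GNAL and ADCY3, which other tissues use as well, in all 18. Of the blood cell markers, PTPRC had none, CD3E had one in all 18 lists, and CD14 in 9 and 3. The part of other cells in the values above was not tested.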

How the data were processed

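ATAC-seq was measured in 18 biological replicates, 3 in each of 6 groups. Tools named in the submitters' processing notes are FastQC 0.12.1, Bowtie2 2.3.5.1, Picard, SAMtools 1.6, Genrich 0.6.2 and R 4.4.1, with GRCh38 as the build. The way in which experimental replicates were merged into a list is not stated in those sources. The deposited narrowPeak lists give each peak's position, the authors' area score (used to rank peaks within a list) and the authors' −log10 p. Without read counts in these files the depth remained unknown, and list differences include it.

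Gene positions came from RefSeq (GRCh38.p14). Peaks were merged within a list, and covered bp was summed over the gene body and 10 kb on either side, divided by the list's total covered length relative to the average of all 18 and compared by limma 3.58.1 (R 4.3.3; Python 3.11.15, pandas 2.3.3) on log2(scaled bp + 500), all groups in 1 fit, with Benjamini-Hochberg adjustment over 16812 genes. The p-values measure the spread between biological replicates, pooled over the 6 groups. A group with 0 bp in all 3 lists adds no spread to that pool. For genes with such groups, among them OR4S2, OR4C6, OR56A1 and OR56A3, the SE and p can therefore be too small. Same-numbered lists deviated together in every pair in MDA-MB-231 day 1 against control (correlations 0.389, 0.235 and 0.193). So they did in MDA-MB-231 day 10 against day 1 (0.419, 0.310 and 0.197) and PC3 day 10 against day 1 (0.345, 0.132 and 0.216). Numbers were taken to pair the lists of these comparisons. Correlations were also positive in MDA-MB-231 day 10 against control (0.330, 0.133 and 0.0564) and PC3 day 10 against control (0.0288, 0.253 and 0.0296). Some of the latter were small, and those lists were not taken as paired. Named members were those called in a contrast (up to 10 each), the 10 with the highest mean, those with a peak within 1 kb of the body in all 3 lists of a group (up to 20), and OR51E1 and OR51E2; other lists gave up to 4 genes each. Members and lists were chosen with earlier results of these data known. The fit was tested on simulated data. Alternatives changed the peak set, scaling, pseudocount, filter, window, block, trend and lists. Some marker genes that were checked are not reported here.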

Additional observations from a re-analysis of the deposited data

Results flagged for a closer look

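The change from untreated cells differed between the lines at the following members, by the interaction test of limma (adjusted p below 0.05, 3 lists per group). Values are the change in PC3 minus the change in MDA-MB-231 on the log2(scaled bp + 500) scale, which depends on the pseudocount of 500 bp where untreated lists were at 0 and is then no bound on a fold. OR5D3, OR51E2, OR10A5, OR56A3 and OR56A1 passed the low-value filter through MDA-MB-231 survivor lists alone, so a larger change in that line was built in, and their values are given as a description with no p. OR5D3 had no peak in any PC3 list, so its value is the MDA-MB-231 change with the sign turned. At day 1 the difference was -1.12 for OR5D3, -0.99 for OR2AT4 (adjusted p = 0.00982), -1.50 for OR51E2 and -0.75 for OR10A5. At day 10 it was -1.44 for OR5D3, -1.14 for OR56A3, -0.87 for OR10A5, -0.65 for OR56A1, -0.89 for OR2AT4 (adjusted p = 0.00771) and -0.69 for OR10A2, which had passed through the day 10 lists of both lines. The neighbours OR8D2 and OR8D1 differed by -0.67 (0.0328) and -0.60 (0.0393) at day 10, and both had 686 to 710.0 scaled bp in untreated PC3 cells and 0 in untreated MDA-MB-231 cells. Of 28 other settings run, OR8D2 kept this call in 15 and OR8D1 in 13, with limma adjusted p up to 0.315. OR51D1 and OR51E1, which share their peaks, differed by 0.78 each (0.0492), a call lost in 19 of the 30 and 19 of the 29 other settings run, with adjusted p up to 0.823.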

How the results depend on the processing

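The lists hold called peaks and no reads, so a site below the caller's threshold in a shallower list cannot be told apart from a closed one, and the regions at these genes had a median area percentile of 23.6. The choice of peaks moved most values. Counts in this section stand without the shares of all genes or regions in the same setting. Whether members moved more than the rest was not tested. With 50000 peaks of highest area per list, MDA-MB-231 had 1 and 2 members higher at day 1 and day 10, PC3 had 1 and 2, and there were 1 and 0 between the days in MDA-MB-231 and PC3, and 4 between the untreated lines; members lower numbered 1 in MDA-MB-231 at day 10 and 0 in its day comparison and in PC3 at day 10. The changes that differed between the lines numbered 0 and 2. Regions gained were 1 and 2 for MDA-MB-231 and 3 for PC3 at day 10, with 1 lost in MDA-MB-231 at day 10, and windows with a peak rose by 1.00 and 3.00 for MDA-MB-231 and 2.67 and 4.67 for PC3. With the upper 50% of each list, members higher were 3 and 2 in MDA-MB-231, 1 and 0 between the days, and 5 between untreated lines; members lower were 0, 0 and 3, differences between lines 1 and 3, regions gained 2 and 3 for MDA-MB-231 and 4 for PC3 at day 1, and windows rose by 6.67 and 9.00 in MDA-MB-231.

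A 1 kb window (8 members tested) gave 5 and 2 higher in MDA-MB-231, 3 and 4 in PC3, 1 and 0 between the days, 1 higher and 4 lower between untreated lines, 0 lower in PC3 at day 10, 1 and 2 differences between lines, and rises of 7.00, 12.3 and, in PC3 at day 10, 8.00 windows. A 25 kb window (61 tested) gave 28 and 24 higher in MDA-MB-231, 20 higher and 6 lower in PC3 at day 10, 9 and 7 between the days, 18 and 18 between untreated lines and 7 differences at day 1. No low-value filter (168 tested) gave 1 lower in MDA-MB-231 at day 1, 21 higher there at day 10, 6 higher and 0 lower between its days, 16 higher and 6 lower in PC3 at day 10, 6 higher between PC3 days, 18 higher between untreated lines and 16 differences at day 10. Median-of-ratios scaling gave 0 lower between MDA-MB-231 days and in PC3 at day 10, 2 higher between PC3 days, 5 lower between untreated lines and 2 differences at day 1; without scaling the last 4 were 0, 2, 5 and 2, with 4 at day 10. Scaling to chromosome 11 gave 0, 4 and 2 for the first 3. A pseudocount of 100 bp gave 0 lower in the same 2 comparisons, 2 higher between PC3 days and 7 differences at day 1, and 2000 bp gave 2 and, at day 10, 6. Fitting a line's lists alone gave 6 higher in MDA-MB-231 at day 10, 1 and 5 higher and 0 lower in PC3, and 0 between its days. The median of all genes moved from -0.16 to 0.00 in PC3 at day 10 with median-of-ratios scaling.

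Leaving out 1 list gave 11 to 15 and 9 to 13 members higher for MDA-MB-231 at day 1 and day 10, 1 to 3 higher and 0 to 3 lower between them, 2 to 6 and 6 to 9 higher in PC3, 0 to 3 lower at day 10, 0 to 2 higher between its days, 9 to 11 higher and 3 to 8 lower between untreated lines, and 2 to 5 and 4 to 9 differences between the lines, below the 10 of the full set at day 10. Regions gained ranged over 12 to 18 and 19 to 30 for MDA-MB-231 and 2 to 9 and 12 to 18 for PC3. Regions lost ranged over 0 to 1 in MDA-MB-231 at day 1 and in PC3 at day 10. The replicate block gave 2 higher between PC3 days and moved no other count by over 1.5 times. In PC3 at day 10 against control it added OR51E2 (limma adjusted p = 0.0472) and OR5B3 (0.0481). Those lists were not taken as paired (correlations 0.0288, 0.253 and 0.0296). Named values changed sign in 6 cases: OR52K1 between untreated lines (-1.17 with 50000 peaks, -1.30 with the upper 50%, -0.0083 with 1 kb), OR2AT4 at day 10 between the lines with 1 kb (0.0079), and OR8D1 and OR8D2 there with the upper 50% (0.58 and 0.58). Counted as pairs of a named value and a setting, with lists left out set apart, 778 kept their call, 107 lost it and 6 gained one, and with 1 list left out 1380 kept it, 128 lost it and 3 gained one. The cause was not tested.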
